A study of Homo sapiens with 12 samples.

Results

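The genes for the U4 and U5 small nuclear RNAs (snRNAs) were examined as sites where the EGFR chimera was found on chromatin. The 7 genes were RNU4-1, RNU4-2, RNU5A-1, RNU5B-1, RNU5D-1, RNU5E-1 and RNU5F-1, out of 62700 genes in GENCODE 44 and 1901 genes of the snRNA biotype. They were chosen by the values themselves, because earlier readings of the same summit lists had shown these families. Their presence in the lists is therefore a description without a test. Each gene was extended by 500 bp on each side, and all summits inside these limits were taken. A summit is the position of highest read coverage within a peak called by MACS2. Together the 4 lists held 2186 summits, of which 17 lay at 6 of the 7 genes.

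B2B1 cells are a single clone of MCF10A-5E, a human breast epithelial line, and carry an EGFR chimera with a GluGlu tag together with an Erbb2 chimera with an HA tag. The synthetic ligand AP21967 (AP) brings an EGFR and an Erbb2 chimera together as a heterodimer. Overlay cultures were given 0.1% ethanol as vehicle (minus AP) or 0.5 µM AP (plus AP) for 24 h. The EGFR chimera was then immunoprecipitated through its GluGlu tag, with 2 replicates per condition. The vehicle is the one the study gives for its overlay cultures, and its ChIP section itself says only with or without AP. The Erbb2 chimera was shared by both conditions. The labels call the replicates biological, and they share the clone. Without AP, the lists held 739 summits in replicate 1 and 56 in replicate 2, and with AP 1094 in replicate 1 and 297 in replicate 2. The other 8 libraries of the study, from input chromatin and naive IgG, were not analysed here, so no control immunoprecipitate can be set beside these values. The lists give no read numbers. Sequencing depth was therefore unknown, and where no summit is listed, none could be detected at the depth reached.

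Introns are removed from pre-mRNA by the spliceosome, which takes in U4 and U5 as part of the U4/U6.U5 tri-snRNP. U4 is base-paired to U6 and holds it inactive until U4 is released on activation, whereas loop 1 of U5 contacts the exon ends that are to be joined. Both RNAs are bound by the ring of Sm proteins at a uridine-rich Sm site. RNA polymerase II transcribes their genes without introns from a proximal sequence element (PSE) that binds the SNAPc complex and a distal enhancer with sites for POU2F1 (the octamer) and ZNF143. U6 and 7SK are transcribed by RNA polymerase III. Many non-coding copies of snRNA genes are scattered in the human genome as annotated pseudogenes.

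The U4 genes are shown because a summit was found at RNU4-2 and none at RNU4-1, although the RNAs are nearly identical. Both lie on the minus strand of chromosome 12 in GRCh38, RNU4-1 at chr12:120293097-120293237 and RNU4-2 at chr12:120291763-120291903, with 1193 bases between them. Capitals mark the 4 of 141 positions at which the sequences, read from the genome 5′ to 3′, differ.
RNU4-1: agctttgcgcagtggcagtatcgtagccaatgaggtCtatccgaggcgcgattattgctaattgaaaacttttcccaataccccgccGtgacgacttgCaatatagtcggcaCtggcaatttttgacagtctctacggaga
RNU4-2: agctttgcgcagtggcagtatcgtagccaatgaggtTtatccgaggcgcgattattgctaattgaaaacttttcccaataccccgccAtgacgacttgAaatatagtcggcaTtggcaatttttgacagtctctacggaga

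The 5 U5 genes stand at 3 places on chromosomes 15 and 1. RNU5A-1 (chr15:65296051-65296166) and RNU5B-1 (chr15:65304677-65304792) lie on the plus strand of chromosome 15, with 8510 bases between them. RNU5D-1 (chr1:44731055-44731170) and RNU5F-1 (chr1:44721786-44721902) lie on the minus strand of chromosome 1, with 9152 bases between them, and RNU5E-1 (chr1:11908152-11908271) lies elsewhere on that chromosome on the plus strand.

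The 7 genes thus stand at 4 loci and are between 116 and 141 bp long. RNU4-1, RNU4-2, RNU5B-1 and RNU5D-1 overlap no other annotated gene. RNU5A-1 lies in an intron of PARP16, which is transcribed from the opposite strand and starts 4567 bp away. RNU5F-1 lies in an intron of ARMH1, on the other strand, 47210 bp from its start. RNU5E-1 lies in an exon of the long non-coding RNA gene ENSG00000285646, which starts 212 bp before it on the same strand. The nearest start of a protein-coding gene was that of PARP16 for RNU5B-1 (4059 bp), KIF2C for RNU5D-1 (8648 bp), SIRT4 for RNU4-1 (9079 bp) and KIAA2013 for RNU5E-1 (18276 bp), so none of the 7 genes was closer than 4059 bp to such a start.

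Summits of the EGFR chimera were found at 4 of the 7 genes in replicate 1 and 1 in replicate 2 without AP, and at 6 in each replicate with AP. Of all 62700 GENCODE genes, 0.201% and 0.100% had a summit within 500 bp in the lists without AP, and 0.278% and 0.547% in those with AP. Of the 1901 genes of the snRNA biotype, the shares were 1.53% and 0.158% without AP and 1.68% and 0.579% with AP. The genes were selected on these lists, so these shares are given for scale alone. No list held more than 1 summit at any of these genes.

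**Figure D1:**
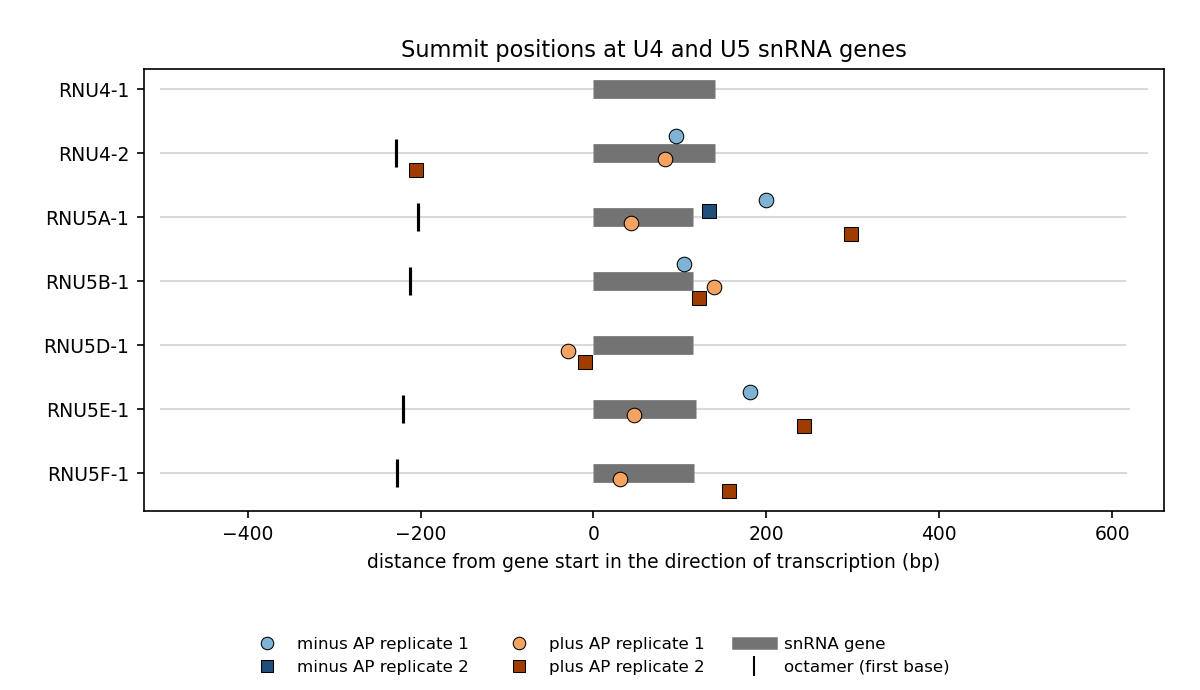
Position of each summit in bp from the start of its U4 or U5 snRNA gene, in the direction of transcription; circles are replicate 1 and squares replicate 2 lists, blue without and orange with AP, grey bars the genes and black ticks the first base of the octamer. The 17 summits lie between 205 bp before and 298 bp after the start, and the row of RNU4-1 is empty.

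U4 was represented by RNU4-2 (ENSG00000202538.1). In minus AP replicate 1 its summit was at position 120291807, inside the gene and 96 bp from the start, with a score of 8.22 and rank 278 of 739. Plus AP replicate 1 placed it at 120291820, 83 bp from the start, with a score of 9.81 and rank 304 of 1094. These summits of the replicate 1 lists were 13 bp apart. The score is the −log10 of the q-value deposited for the summit and was compared within a list alone. The summit of plus AP replicate 2 lay before the gene, at 120292108 and 205 bp upstream of the start, with a score of 3.80 and rank 167.5 of 297. It was 288 bp from the summit of the other plus AP library. No summit was listed at RNU4-2 in minus AP replicate 2.

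At RNU4-1 (ENSG00000200795.1) no list held a summit within 500 bp. The nearest was the plus AP replicate 2 summit of RNU4-2, 989 bp from the gene RNU4-1 itself. The distance from the gene was 1277 bp in plus AP replicate 1, 1290 bp in minus AP replicate 1 and 4621278 bp in minus AP replicate 2. In 3 of the 4 lists, then, the neighbouring copy had a summit and RNU4-1 had none.

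U5 was represented by all 5 of its genes. RNU5A-1 (ENSG00000199568.1) was the single gene of the 7 with a summit in every list, and its 4 summits fell at 4 places. In minus AP replicate 1 the summit was at 65296251, 85 bp past the end of the gene, with a score of 3.26 and rank 578 of 739. In minus AP replicate 2 it was at 65296185, 19 bp past the end, with a score of 4.84 and rank 22.5 of 56. With AP, it lay inside the gene in replicate 1, at 65296094 with a score of 9.44 and rank 313.5 of 1094. In replicate 2 it lay 183 bp past the end, at 65296349, with a score of 9.41 and rank 30.5 of 297. Replicate lists of the same condition placed it 66 bp apart without AP and 255 bp apart with AP.

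RNU5B-1 (ENSG00000200156.1), the closest relative of RNU5A-1 in sequence, had summits within 34 bp of each other in 3 lists, all near the end of the gene. That of minus AP replicate 1 (65304782, score 4.51, rank 465.5 of 739) was inside the gene, 105 bp from its start. That of plus AP replicate 1 (65304816, score 5.99, rank 499 of 1094) was 24 bp past the end. That of plus AP replicate 2 (65304799, score 12.3, rank 16 of 297) was 7 bp past the end. This was the steadiest position among the genes with a summit in 3 or more lists.

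RNU5E-1 (ENSG00000199347.1) had summits in the same 3 lists as RNU5B-1 and RNU4-2. In minus AP replicate 1 the summit was 62 bp past the end of the gene (11908333, score 6.30, rank 356 of 739). That of plus AP replicate 1 was inside the gene, 47 bp from the start (11908199, score 10.3, rank 293 of 1094). That of plus AP replicate 2 was 124 bp past the end (11908395, score 11.6, rank 18 of 297). The plus AP replicates were thus 196 bp apart, with the minus AP replicate 1 summit between them.

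RNU5D-1 (ENSG00000200169.1) and RNU5F-1 (ENSG00000199377.1), neighbours on chromosome 1, had summits in both plus AP lists and in neither minus AP list. The summits of RNU5D-1 were just before its start, 29 bp upstream in replicate 1 (44731199, score 2.86, rank 849 of 1094) and 10 bp upstream in replicate 2 (44731180, score 16.2, rank 5 of 297). Those of RNU5F-1 were 31 bp inside the gene in replicate 1 (44721871, score 2.72, rank 883.5 of 1094) and 41 bp past its end in replicate 2 (44721745, score 8.34, rank 40.5 of 297). In plus AP replicate 1 these were the lowest ranks of the 6 genes listed, whereas in plus AP replicate 2 RNU5D-1 had the highest.

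Without AP, 2.5 ± 2.12 of the 7 genes had a summit, compared with 6.0 ± 0.0 with AP (SD, n = 2 libraries). RNU5A-1 was the 1 gene found in both minus AP lists and in all 4 lists, whereas 6 genes recurred in both plus AP lists. With summits of score 3 or more, 4 genes recurred with AP and 1 without. The numbers were the same when the summits of a condition had to be within 200 bp of each other, but the genes with AP differed. The score minimum removed RNU5D-1 and RNU5F-1, whereas the distance removed RNU4-2 and RNU5A-1. The effect of AP and the length of the lists cannot be told apart here. The minus AP replicate 2 list was the shortest, and an exact permutation test of 2 libraries against 2 cannot give a two-sided p below 0.333. Without replicate 2, 4 genes were found without AP against 6 with AP, or 4 against 4 with summits of score 3 or more. When each list was cut to its 56 highest-scoring summits, the length of the shortest, no gene was left in either replicate 1 list and none recurred with AP, whereas plus AP replicate 2 kept 5 genes.

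**Figure D2:**
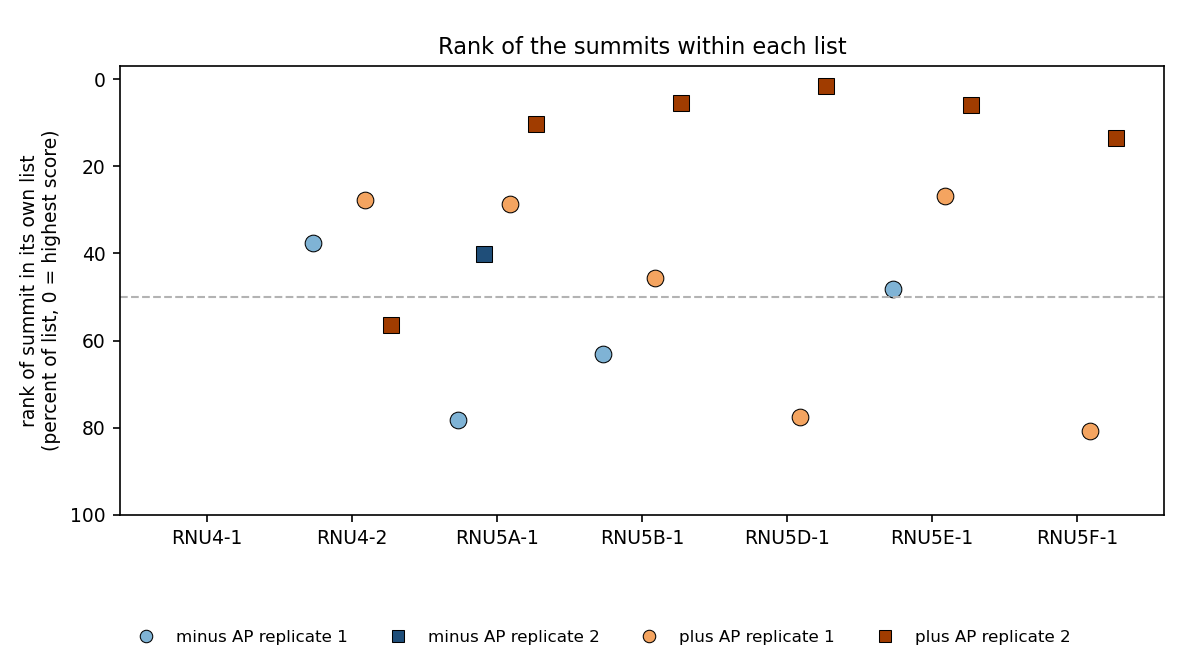
Rank of each summit within its own list, as a percent of the list from 0 (highest score) to 100, for the 7 genes on the x axis; circles are replicate 1 and squares replicate 2, blue without and orange with AP, and the dashed line marks the middle of a list. Of the 6 summits of plus AP replicate 2, 5 lie between 1.68% and 13.6%, whereas those of plus AP replicate 1 spread from 26.8% to 80.8%.

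The ranks of the summits are given within each list, and the lists differ in length from 56 to 1094 summits, which bears on the percentages. Those of plus AP replicate 2 stood at a median of 8.16% of the list from the top (range 1.68% to 56.4%), and RNU4-2 was the lowest. The median was 37.1% (26.8% to 80.8%) in plus AP replicate 1 and, without AP, in replicate 1 it was 55.6% (37.6% to 78.2%). The single summit of minus AP replicate 2 stood at 40.2%. The order of the genes also changed, since RNU4-2 was second highest of 6 in plus AP replicate 1 (27.8%) and last in plus AP replicate 2 (56.4%). When summits were ranked among those within 500 bp of any gene, the medians were 47.9% for minus AP replicate 1 and, with AP, 28.8% for replicate 1 and 8.54% for replicate 2.

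By position, 6 of the 17 summits were inside a gene, 8 were past its end and 3 were before its start. The lists differed in this as well. Plus AP replicate 1 placed 4 of its 6 summits inside the gene, at a median of 45.0 bp from the start, and plus AP replicate 2 placed none inside, with 4 past the end and 2 before the start. Minus AP replicate 1 had 2 inside and 2 past the end (median 143 bp). At the 6 genes that both plus AP lists held, their summits were a median of 161 bp apart (17 to 288 bp), more than the length of any of these genes. Minus AP replicate 1 and plus AP replicate 1 shared 4 genes, with summits a median of 84.0 bp apart (13 to 157 bp). The summits farthest from a gene but inside its limits were 205 bp (RNU4-2), 183 bp (RNU5A-1) and 124 bp (RNU5E-1) away. Just outside the limits, the nearest summits were those of RNU4-2 seen from RNU4-1 (989 bp from the gene) and that of RNU5A-1 seen from RNU5B-1 (8328 bp from the gene).

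Small nuclear RNA genes exist in many near copies, so the sequence around the 7 genes was searched for repeats. A 75-bp sequence is as long as a read, and the authors kept uniquely mapped reads. Of all 75-bp sequences within the limits, 0.281% at RNU4-2 and 0.384% at RNU5D-1 occurred more than once in GRCh38 on either strand, and none did at the other 5 genes. RNU4-1 was among these, with 0 of 1067 sequences repeated. Exact matches alone were counted, so near copies count as unique. Of the 36-bp sequences inside the gene, 45.3% were repeated at RNU4-1 and 21.7% at RNU4-2. At the U5 genes, all with summits, this share ran from 7.32% (RNU5F-1) to 51.9% (RNU5B-1). Over the whole limits, 8.14% of 36-bp sequences were repeated at RNU4-1 and 8.14% at RNU4-2. The part of such likeness in the missing summit at RNU4-1 was not tested. No repeated 75-bp sequence lay within 250 bp of any of the 17 summits. The RNAs are nonetheless similar. RNU4-1 and RNU4-2 were 97.2% identical, and the 10 pairs of U5 genes were between 77.8% (RNU5D-1 and RNU5F-1) and 94.0% (RNU5A-1 and RNU5B-1) identical. Outside the genes the likeness was lower. In the 250 bases before the start, the U4 pair was 49.6% identical and the U5 pairs 50.2% to 64.3%, with RNU5A-1 and RNU5B-1 again the most alike. In the 250 bases past the end, identity was 51.3% for the U4 pair and 44.5% to 51.1% for U5.

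The distal part of the promoters is shown because letters of a POU2F1 octamer and of a ZNF143 site stood side by side there in several of the genes. Each stretch covers the bases from 235 to 181 before the gene start, read on the strand of the gene, 5′ to 3′. Capitals mark the octamer (ATTTGCAT) and the ZNF143-like letters (CCCANAATGCA), where these occur.
RNU4-1: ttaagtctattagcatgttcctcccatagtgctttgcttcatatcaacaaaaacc
RNU4-2: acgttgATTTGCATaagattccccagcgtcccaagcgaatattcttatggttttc
RNU5A-1: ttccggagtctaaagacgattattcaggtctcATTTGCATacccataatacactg
RNU5B-1: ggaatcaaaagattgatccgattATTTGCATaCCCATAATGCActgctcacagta
RNU5D-1: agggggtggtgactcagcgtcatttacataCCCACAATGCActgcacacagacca
RNU5E-1: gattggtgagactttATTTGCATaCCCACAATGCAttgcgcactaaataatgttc
RNU5F-1: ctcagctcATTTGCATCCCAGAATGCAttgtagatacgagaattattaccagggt

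These stretches were chr12:120293418-120293472 for RNU4-1 and chr12:120292084-120292138 for RNU4-2, both on the minus strand. Those of RNU5A-1 and RNU5B-1 were chr15:65295816-65295870 and chr15:65304442-65304496 on the plus strand. RNU5D-1 was read at chr1:44731351-44731405 and RNU5F-1 at chr1:44722083-44722137, on the minus strand, and RNU5E-1 at chr1:11907917-11907971 on the plus strand. The octamer, searched on both strands of the 250 bases before the start, was present at 5 of the 7 genes, beginning 229 bases before the start of RNU4-2, 203 before RNU5A-1, 212 before RNU5B-1, 220 before RNU5E-1 and 227 before RNU5F-1. RNU4-1 and RNU5D-1 held it with 1 mismatch. Exact octamers were found before 6.14% of 114 U4 and U5 pseudogenes and in 1.63% of 35116 RefSeq promoter windows before the start, and with up to 1 mismatch in 31.6% and 15.3%. The ZNF143-like letters, a pattern chosen after the sequences had been read and also searched on both strands, were found at RNU5B-1, RNU5D-1, RNU5E-1 and RNU5F-1, against 0.877% of the pseudogenes and 0.225% of RefSeq promoters. No octamer overlapped them. Both patterns together were found at RNU5B-1, RNU5E-1 and RNU5F-1 and at 1 pseudogene, RNU5E-4P. A PSE-like pattern was ACC and AA separated by 8 bases on the coding strand, its first base 75 to 40 bases before the start. It was found at RNU4-2 alone of the 7 U4 and U5 genes. Of 8 U1 and U2 genes listed by name, 7 were found in the annotation, and all 7 held it. So did 2 of the 4 minor spliceosome genes, 2.63% of the pseudogenes and 2.02% of RefSeq promoters. The exact octamer was found at 1 of the 7 U1 and U2 genes and 2 of the 4 minor spliceosome genes. TATAAA, on either strand, was found at RNU5A-1 alone of the 7, in 33.3% of the pseudogenes and in 10.7% of RefSeq promoters. These matches describe letters and not bound sites. RNU5D-1 and RNU4-1 both lacked an exact octamer, the first having summits in 2 lists and the second none. Whether these letters bear on the summits was not tested.

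**Figure D3:**
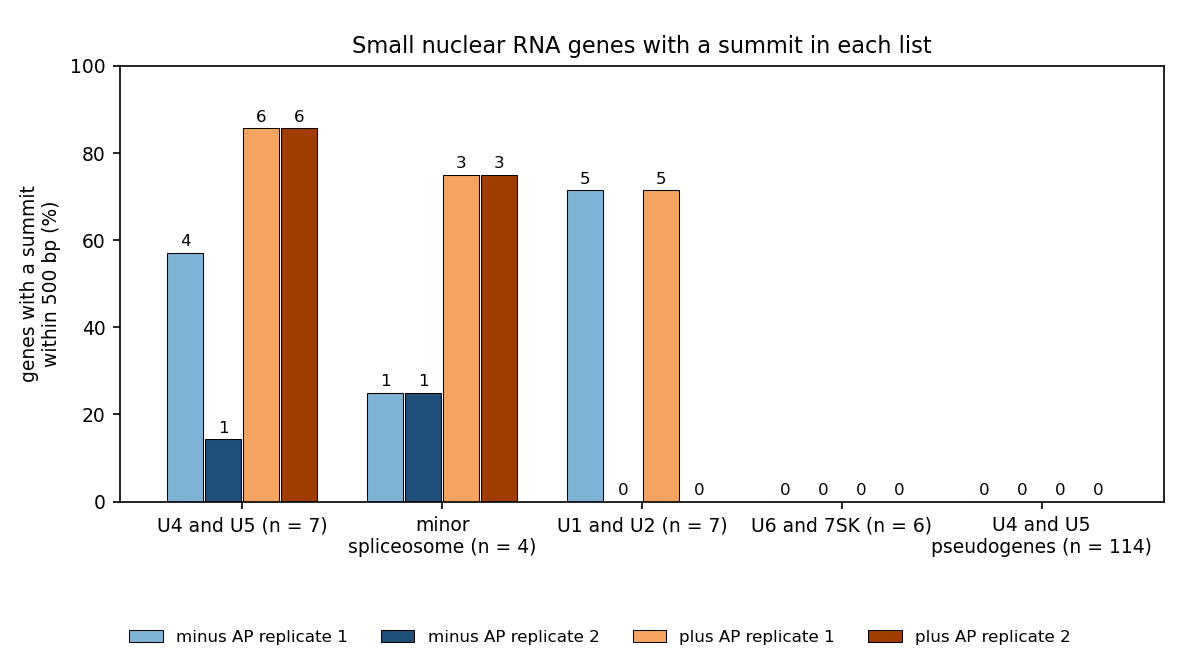
Share of genes in each snRNA class with a summit within 500 bp (y axis, percent), with 1 bar per list (blue without AP, orange with AP) and the number of genes above it. U4 and U5 genes reached 6 of 7 in both plus AP lists, U1 and U2 genes 5 of 7 in the replicate 1 lists and 0 in the replicate 2 lists, and the 114 U4 and U5 pseudogenes 0 in all 4.

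None of the 114 annotated pseudogenes of U4 (88) and U5 (26) had a summit within 500 bp in any list. A count of 0 of 114 genes allows a share of up to 2.63%, which covers counting error alone. Since 0.100% to 0.547% of all genes had a summit, a count of 0 is near that background. For 86 of these pseudogenes no 75-bp sequence within the limits was repeated, and the highest share was 35.0%. RNU5E-4P, with the octamer and the ZNF143-like letters before its start, lies at chr1:11909808-11909927 on the minus strand, with 1536 bases between it and RNU5E-1. Its nearest summit in any list was 1413 bp away.

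The other spliceosomal snRNA genes are given for comparison, without a test. The minor spliceosome uses U11, U12, U4atac and U6atac in place of their major counterparts. Of these 4 genes, 1 had a summit in each minus AP list and 3 in each plus AP list. RNU11 was found in minus AP replicate 2 and both plus AP lists, RNU4ATAC, the U4 of the minor spliceosome, in minus AP replicate 1 and both plus AP lists, and RNU12 in both plus AP lists. RNU4ATAC was thus in the same lists as RNU4-2, RNU5B-1 and RNU5E-1, and RNU12 in the same as RNU5D-1 and RNU5F-1. In plus AP replicate 2, RNU11 ranked at 3.20% of the list, RNU4ATAC at 33.0% and RNU12 at 47.6%, against 1.68% to 13.6% for the U5 genes. Of the 7 annotated genes on the list of U1 and U2, which recognise the 5′ splice site and the branch point, 5 had a summit in each replicate 1 list (RNU1-1, RNU1-2, RNU1-3, RNU1-4 and RNU2-1) and none in a replicate 2 list. Within the limits of the U1 and U2 genes, 41.0% to 100% of 75-bp sequences were repeated, against at most 0.570% for the minor spliceosome genes and 0.384% for U4 and U5. The part of repeated sequence in this difference was not tested. No summit was found at any of the 6 U6 and 7SK genes in any list. Since 0.100% to 0.547% of all genes had a summit, a count of 0 of 6 is near that background. The sequence around the U6 and 7SK genes was not searched for repeats.

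Protein genes of the same pathway were counted with the same limits. None of the 17 genes for tri-snRNP proteins had a summit within 500 bp in any list, among them PRPF8, SNRNP200 and EFTUD2, the large U5 proteins, and PRPF3, PRPF4 and PRPF31, which bind U4/U6. The same held for the 7 genes of Sm proteins and the 11 genes of snRNA transcription, which include SNAPC1, POU2F1 and ZNF143. Of the 14 genes of Integrator, the complex that cleaves the ends of nascent snRNAs, INTS6 had a summit in both replicate 2 lists and no other gene had any. Of all genes, 0.100% to 0.547% had a summit, and nothing about the pathway is read from these counts.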

How the data were processed

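Summit lists of the 4 GluGlu ChIP-seq libraries were used. The authors demultiplexed reads with bcl2fastq, checked them with FastQC 0.11.5, used Bowtie2 2.2.9 to align read pairs of 75 bp to GRCh38, discarded duplicates and reads without a unique position, and ran MACS2 2.2.7.1 on each library with input chromatin as the control, according to the methods of the study. Its results speak of naive IgG as the control, so what the scores are relative to is uncertain. The deposited score is the −log10 of the q-value, and it was used for ranks within a list, ties taking the mean rank. Lists were matched to samples through the prefixes of their peak names and the sample titles. Genes came from GENCODE 44 and sequences from GRCh38. Sequences of 75 bp were counted on both strands, leaving out alternate haplotypes, and identity was taken from global alignments (Biopython 1.88). Computations used Python 3.11.15, numpy 2.4.6, pandas 2.3.3, numba 0.67.0 and matplotlib 3.10.9. RefSeq promoter windows were used as the background of motifs. Scripts were tested on simulated data. No statistical test was run.

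The members and lists were chosen with earlier results of these data known. The transcribed sequences of U5 are not reported here. Genes named were the 7 members, any gene overlapping them, pseudogenes with a summit, and genes of the pathway lists with a summit in at least 2 lists. RNU5E-4P, the nearest protein-coding genes and the protein genes without a summit were named outside this rule, RNU5E-4P after its values were seen. Alternatives changed the gene limits, the score minimum, the list length, the annotation, the merging and sharing of summits, the set ranked, the replicates and the length of repeated sequence.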

Additional observations from a re-analysis of the deposited data

How the results depend on the processing

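No paired analysis was run because the results come from no test. The labels number the replicates and do not say whether cultures with the same number were prepared together. Between lists of the same replicate number, members with a summit numbered 4 without and 6 with AP in replicate 1, and 1 and 6 in replicate 2. With the gene limits extended by 0 bp, so that a summit had to lie inside the gene, members with a summit fell to 2 in minus AP replicate 1, 0 in minus AP replicate 2 and 0 in plus AP replicate 2, as did their summits, and 0 genes recurred without AP, with AP or in all lists. This follows from the positions, since 6 of the 17 summits were inside a gene. With the 56 highest-scoring summits of every list, 0 members were left in minus AP replicate 1 and 0 in plus AP replicate 1, and again 0 recurred without AP, with AP or in all lists. When summits of all lists had to be within 200 bp of each other, 0 genes recurred in all lists. Leaving out a replicate gave 1 to 4 genes without AP, 1 to 4 in all remaining lists and 6 with AP. Within 1000 bp, 7 genes were counted in plus AP replicate 2, since the summit of RNU4-2 also fell within the limits of RNU4-1. The best rank in minus AP replicate 1 was 26.9% among summits within 500 bp of any gene, against 37.6% in the whole list. Repeated sequence in the limits rose from 0.0953% for 75-bp to 7.18% for 36-bp sequences. With summits of score 3 or more, members with a summit fell from 6 to 4 in plus AP replicate 1, and minus AP replicate 1 kept 4. Genes that recurred with AP fell from 6 to 4 with that minimum, and to 4 partly different genes when their summits had to be within 200 bp. Of the alternative values, 74, these included, stayed within 1.5 times the main count or within the spread between replicates, and 19 did not. Some of the 74 could not change. A pseudogene count of 0 cannot rise with narrower limits or a score minimum, and no gene had several summits to merge in a list. The difference in recurrence between conditions was lost with limits extended by 0 bp and with the 56 highest-scoring summits, at 0 genes without and 0 with AP. The unknown depth limits all statements on missing summits.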
